A study of Mus musculus with 6 samples.

Results

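Myelin is the stack of membrane that a glial cell wraps around an axon, and 8 mRNAs that encode its proteins or make its lipids were examined by Ribo-seq, in which the pieces of mRNA that translating ribosomes cover are sequenced. They were Mbp, Mog, Mag, Mobp, Cnp, Cldn11, Mal and Ugt8a, chosen by gene symbol and matched through the Ensembl gene ID in each row, and all 8 were found among the 18437 mRNAs listed in any library. The libraries came from C57BL/6J mice of wild-type genotype, untreated and 4 weeks old, with 1 library per label, the labels being lung, heart, kidney, brain, colon and small intestine. The sex of the mice and the number pooled are not given in the sources used here. Ribosome density was given as RPKM, the reads on a coding sequence (CDS) divided by its length and by all reads on CDSs. There were no replicates, so no test was made between libraries, and the 95% intervals below cover the counting of reads only, which carry no molecular identifiers.

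In the brain and spinal cord myelin is made by oligodendrocytes, and in peripheral nerves by Schwann cells. Mog, Mobp and Cldn11 belong to central myelin, whereas Mbp, Mag, Cnp, Mal and Ugt8a are used by both kinds of cell. Several of the latter also act outside myelin, since Mbp has a long form made in cells of the immune system and Mal is a membrane protein of T cells and of polarised epithelium, including that of the kidney.

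Tissue markers went against 4 of the 6 labels. The 3 brain markers were highest in the small-intestine-labelled library, the 3 small intestine markers in the brain-labelled one, the 3 kidney markers in the colon-labelled one and the 3 colon markers in the kidney-labelled one, while heart and lung markers followed their labels. Snap25, a protein of the synaptic vesicle machinery, had 683 RPKM in the small-intestine-labelled library and 0.761 RPKM in the brain-labelled one. Libraries are therefore named by their labels, and every direction below holds for the labels only. Between 4504853 and 10635031 reads on CDSs were recovered per library. A missing value needs care, since mRNAs with at least 30 reads in each of the other libraries had no read in the remaining one in 128 cases for the brain-labelled library, 95 for lung, 27 for colon, 11 for small intestine, 2 for kidney and 1 for heart.

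All 8 myelin mRNAs had their highest RPKM in the small-intestine-labelled library, the library with the brain markers. Across all mRNAs with any read, 24.6% were highest there. The same 8 were at least 4-fold above every other library, with a library of fewer than 3 reads set to the value of 3 reads, against a background of 9.08% of the 15432 mRNAs with at least 10 reads in all. At 2-fold the background was 14.4% and the count stayed at 8. At 10-fold the background was 5.35% and 5 were left, namely Mog, Mag, Mobp, Cldn11 and Ugt8a. In tissue extracts, fewer cells of a type and less RNA per cell cannot be told apart.

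**Figure D1:**
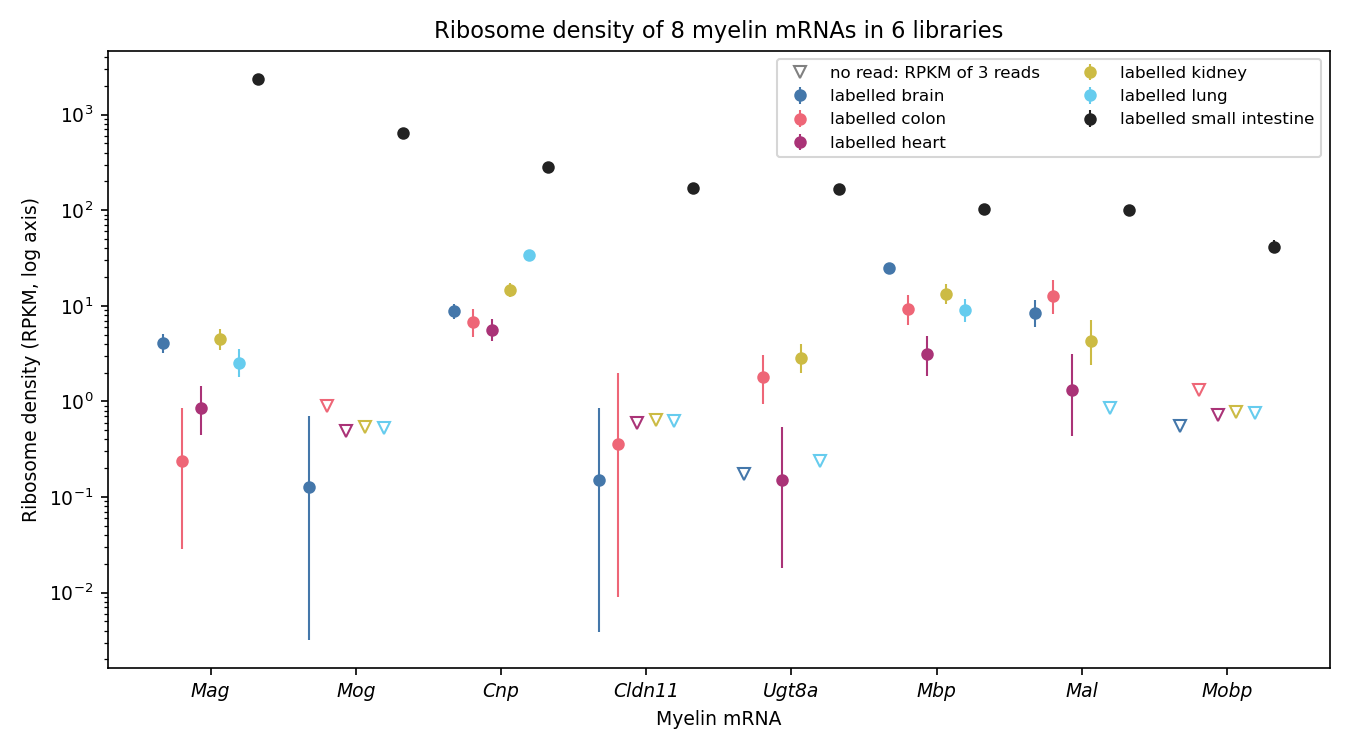
RPKM on a log axis of the 8 myelin mRNAs, ordered by their highest value, in the 6 libraries named by label. Points are the deposited values with 95% Poisson intervals of the reads, and open triangles mark a library without reads at the RPKM that 3 reads would give. The small-intestine-labelled library is on top for each mRNA, from 41.6 RPKM of Mobp to 2339 RPKM of Mag, while Mbp, Cnp and Mal keep several RPKM elsewhere.

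The promoters of 4 myelin mRNAs are shown because they span the patterns described next, with Mobp and Mog read almost in 1 library only and Cnp and Mal in most of them. Each line is the 250 bases before the RefSeq start site in GRCm38.p6, from 5′ to 3′ on the strand of the gene, and capitals mark matches on either strand to the 4 motifs searched. These were ACAAAG, the core sequence bound by SOX factors, and CAGCTG, an E-box. The remaining motifs were GGGCGG, which is a GC box, and the TATA box TATAAA.
Mobp (chr9:120149492-120149741, plus strand): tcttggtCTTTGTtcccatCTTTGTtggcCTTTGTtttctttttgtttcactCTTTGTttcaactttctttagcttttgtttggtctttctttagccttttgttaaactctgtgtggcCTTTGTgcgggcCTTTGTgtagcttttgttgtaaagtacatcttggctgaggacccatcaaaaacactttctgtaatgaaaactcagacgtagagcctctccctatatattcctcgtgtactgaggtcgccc
Mog (chr17:37023399-37023648, minus strand): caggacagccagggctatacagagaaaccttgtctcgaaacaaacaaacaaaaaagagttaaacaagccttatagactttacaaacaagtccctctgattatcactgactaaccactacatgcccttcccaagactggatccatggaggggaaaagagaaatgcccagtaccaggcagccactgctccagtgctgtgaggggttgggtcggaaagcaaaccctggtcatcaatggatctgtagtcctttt
Cnp (chr11:100574689-100574938, plus strand): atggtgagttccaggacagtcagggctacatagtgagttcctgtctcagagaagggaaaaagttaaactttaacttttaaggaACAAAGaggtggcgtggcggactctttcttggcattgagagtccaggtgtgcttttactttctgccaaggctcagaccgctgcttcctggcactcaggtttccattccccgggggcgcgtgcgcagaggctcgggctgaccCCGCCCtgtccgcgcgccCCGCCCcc
Mal (chr2:127656696-127656945, minus strand): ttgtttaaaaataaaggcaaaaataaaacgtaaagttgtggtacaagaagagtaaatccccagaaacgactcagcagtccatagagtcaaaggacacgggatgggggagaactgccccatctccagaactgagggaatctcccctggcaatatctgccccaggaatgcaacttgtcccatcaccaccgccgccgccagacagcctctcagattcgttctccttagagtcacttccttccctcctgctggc

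All 6 capital runs in Mobp are ACAAAG read on the opposite strand, between 243 and 120 bases before the start. Of the 32851 RefSeq promoters of mouse, each taken with 50 bases after the start as well, 18.7% held at least 1 ACAAAG and 1 held 6 or more, which was that of Mobp. This feature was picked out after its values were seen. Cnp held 1 ACAAAG and 2 GC boxes in the stretch shown, and Mog and Mal held none of the 4 motifs. GGGCGG was in 35.7% of all promoters, CAGCTG in 16.3% and TATAAA in 13.6%. A match says only that these letters are present.

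RefSeq promoters were found for 7 of the 8 myelin mRNAs, at 9 start sites. The ratio of observed to expected CpG had a median of 0.384 over all promoters. It was 0.171 for Mog, between 0.101 and 0.194 for the 3 start sites of Mag, 0.364 for Mobp and 0.423 for Mal. Cnp had 0.638, Cldn11 0.730 and Ugt8a 0.974, the last with 3 GC boxes and a ratio above that of 92.6% of promoters. Myelin mRNAs highest in the same library thus had promoters with few CpGs as well as promoters rich in them.

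The mRNAs of central myelin had the lowest levels outside the highest library. Mog, Mobp and Cldn11 were the 3 of the 8 that had under 1 RPKM in each library but the highest, where 7.04% of mRNAs with at least 10 reads were highest in the small-intestine-labelled library and met that limit. Mog, Mobp and Cldn11 were also the 3 that background knowledge places in central rather than peripheral myelin. That grouping does not speak of use outside myelin, and the match between both groupings was not tested. By fold no full order can be given. With 3 reads as the floor the fold was at least 721 for Mog, 157 for Cldn11 and 31.8 for Mobp, which are bounds. It was 521 for Mag and 59.2 for Ugt8a, whose next library had more than 3 reads.

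Mog (ENSMUSG00000076439, chr17:37321521-37334350, minus strand, in GRCm39 as for all gene positions below) encodes myelin oligodendrocyte glycoprotein, which sits on the outermost layer of the sheath. It had 648 RPKM (95% interval 627 to 669, 3670 reads) in the small-intestine-labelled library and 0.127 RPKM, from 1 read, in the brain-labelled one. It was listed at 0 in the kidney-labelled library and not listed in those labelled colon, heart and lung. In these 4 libraries 3 reads would have given between 0.495 and 0.899 RPKM. The ratio to the brain-labelled library was 5106, with an interval from 916 to 201715 because it rests on a single read.

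Mobp (ENSMUSG00000032517, chr9:119973770-120011273, plus strand) encodes a small basic protein of compact central myelin. It had 41.6 RPKM (35.4 to 48.5, 162 reads) in the small-intestine-labelled library, the lowest level of the 8 mRNAs there. It was listed at 0 in the libraries labelled heart and kidney and not listed in those labelled brain, colon and lung. No measured fold can be given against libraries without a read, and the 31.8-fold above is a bound. In them 3 reads would have given between 0.553 RPKM, for the label brain, and 1.31 RPKM, for the label colon. At the depth of the colon-labelled library a level near 1 RPKM would thus be expected to give fewer than 3 reads.

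Cldn11 (ENSMUSG00000037625, chr3:31203900-31218495, plus strand) encodes claudin 11, which forms the tight junction strands between the layers of central myelin. It had 169 RPKM (157 to 181, 801 reads) in the small-intestine-labelled library. The libraries labelled colon and brain held 1 read each, or 0.357 and 0.151 RPKM, and their ratio of 2.36 had an interval from 0.0301 to 185. The mRNA was listed at 0 in the libraries labelled heart and kidney and not listed in the lung-labelled one. The ratio of the highest to the next library was 472 (84.5 to 18667).

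Mag and Ugt8a came next in the share of their signal that lay in the small-intestine-labelled library. This share of the RPKM summed over the 6 libraries was 99.5% for Mag and 97.2% for Ugt8a, beside 99.98% for Mog, 99.7% for Cldn11 and 100% for Mobp. Both had at least 1 RPKM in some other library.

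Mag (ENSMUSG00000036634, chr7:30598464-30614474, minus strand) encodes myelin-associated glycoprotein, an adhesion molecule of the membrane that faces the axon. It had 2339 RPKM (2314 to 2365, 33640 reads) in the small-intestine-labelled library, rank 30 of the 15028 mRNAs with reads there. The libraries labelled kidney and brain had 4.49 and 4.05 RPKM, the lung-labelled one 2.54 RPKM, the heart-labelled one 0.845 RPKM and the colon-labelled one 0.236 RPKM from 2 reads. The highest library stood 521-fold (408 to 677) above the next. The values labelled kidney and brain did not differ beyond counting error, with a ratio of 1.11 (0.786 to 1.56), nor did those labelled heart and colon. The lung-labelled library lay between these pairs, 1.59-fold (1.07 to 2.42) below the brain-labelled one and 3.01-fold (1.57 to 6.18) above the heart-labelled one.

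Reads of Mag outside the highest library were set beside those of Mog. At the ratio of the small-intestine-labelled library, the 81 Mag reads in the brain-labelled library would go with 8.84 Mog reads, and 1 was found. The 64 Mag reads in the kidney-labelled library would go with 6.98 Mog reads and the 37 in the lung-labelled one with 4.04, and none was found in either. Fewer Mog reads were thus found in these libraries than the ratio gives, and the origin of the Mag reads was not tested.

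Ugt8a (ENSMUSG00000032854, chr3:125654459-125732736, minus strand) encodes the enzyme that makes galactosylceramide, the main glycolipid of myelin. It had 168 RPKM (161 to 176, 2090 reads) in the small-intestine-labelled library. The kidney-labelled library had 2.84 RPKM and the colon-labelled one 1.78 RPKM, a ratio of 1.60 (0.826 to 3.29), and the heart-labelled one 0.151 RPKM from 2 reads. It was listed at 0 in the brain-labelled library and not listed in the lung-labelled one. The highest library was 59.2-fold (42.5 to 85.3) above the next.

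Mbp, Cnp and Mal were read in most libraries, and these 3 had the smallest ratios between the highest and the next library. The small-intestine-labelled library held 63.3% of the summed RPKM of Mbp, 80.3% of that of Cnp and 79.0% of that of Mal. The next library was a different one for each, labelled brain for Mbp, lung for Cnp and colon for Mal.

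Mbp (ENSMUSG00000041607) encodes myelin basic protein, which holds the inner faces of the myelin membrane together. It had 102 RPKM (93.9 to 111, 585 reads) in the small-intestine-labelled library. The other values were 24.6 RPKM (21.3 to 28.3, 196 reads) for the label brain, 13.4 RPKM for kidney, 9.18 RPKM for colon, 8.97 RPKM for lung and 3.10 RPKM for heart. The highest library was 4.15-fold (3.53 to 4.91) above the brain-labelled one, the smallest such ratio of the 8 mRNAs, with an interval that reached below the 4-fold limit. Those labelled kidney and colon did not differ beyond counting error, with a ratio of 1.46 (0.947 to 2.29), nor did those labelled colon and lung. Although Mbp is among the most abundant myelin proteins, its density ranked 1076 in that library, below 5 of the other myelin mRNAs.

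The CDS on which Mbp reads were counted bears on that value. The row names a transcript of 250 codons, the long form known as golli-MBP, since the Methods take the longest CDS of each gene. The principal isoform in the GENCODE M39 annotation has 169 codons. The 2 share 351 bases in the same frame, which are 46.8% of the counted CDS and 69.2% of that of the principal isoform, among 59 coding transcripts annotated for the gene. Reads on the rest of the principal isoform had no place in the counted CDS, and long and classic forms cannot be told apart in a single value per gene. Mobp was the other such case, with a counted CDS of 510 bases that shared 206 bases, or 40.4%, with a principal CDS of 243 bases. For the remaining 6 mRNAs the counted CDS and the principal one were identical.

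**Figure D2:**
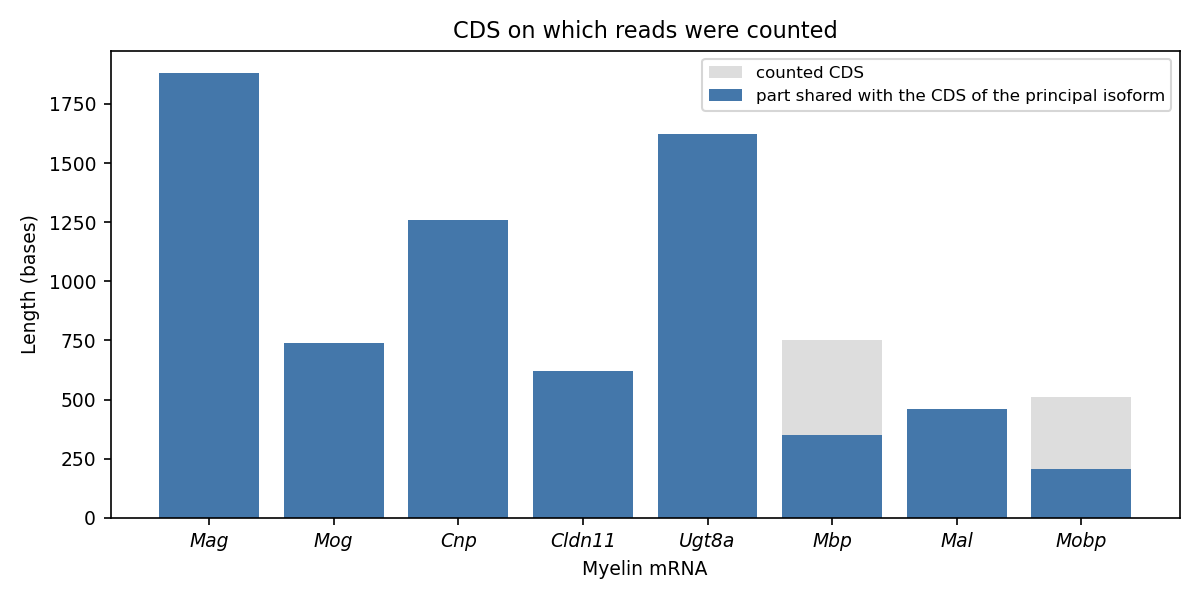
Length in bases of the CDS on which reads were counted for each of the 8 myelin mRNAs (full bar), with the part shared with the CDS of the principal isoform in blue. The bars are fully blue for 6 mRNAs, while 351 of 750 bases are shared for Mbp and 206 of 510 for Mobp.

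Cnp (ENSMUSG00000006782, chr11:100465730-100482936, plus strand) encodes a phosphodiesterase of the non-compact cytoplasmic channels of myelin. It had 286 RPKM (275 to 297, 2754 reads) in the small-intestine-labelled library. The lung-labelled library had 34.3 RPKM (30.7 to 38.2, 334 reads), the kidney-labelled one 14.8, the brain-labelled one 8.73, the colon-labelled one 6.69 and the heart-labelled one 5.63 RPKM. No library lacked it, and those labelled brain, colon and heart formed neighbours whose ratios of 1.30 (0.898 to 1.93) and 1.19 (0.769 to 1.82) held 1, although the brain label exceeded the heart label by 1.55 (1.12 to 2.16). The highest library was 8.34-fold (7.44 to 9.37) above the lung-labelled one, a ratio that became 13.3 when libraries were scaled by the median of ratios in place of their totals.

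Mal (ENSMUSG00000027375, chr2:127475142-127498615, minus strand) encodes a small proteolipid of membrane rafts that takes part in the sorting of proteins to the cell surface. It had 100.03 RPKM (89.8 to 111, 351 reads) in the small-intestine-labelled library. The colon-labelled library, which carried the kidney markers, had 12.6 RPKM (8.21 to 18.4, 26 reads), and the brain-labelled one, which carried those of small intestine, had 8.40 RPKM (6.03 to 11.4, 41 reads). The ratio between them was 1.50 (0.879 to 2.51). The kidney-labelled library had 4.31 RPKM and the heart-labelled one 1.33 RPKM from 5 reads, and the lung-labelled one did not list the mRNA. The highest library was 7.96-fold (5.34 to 12.4) above the colon-labelled one.

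Markers of T cells and of the thick ascending limb, the segment of the nephron known for Mal, were set beside these values. Of 8 T cell mRNAs, 5 were highest in the lung-labelled library, where Mal was not listed, beside 22.6% of all mRNAs with any read. Of 5 thick ascending limb mRNAs, 4 were highest and past 4-fold in the colon-labelled library, where Mal had its next highest value, beside 2.84% of all mRNAs with at least 10 reads. Umod, the uromodulin of that segment, had 16438 RPKM there. Whether these cells gave the Mal reads was not tested.

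**Figure D3:**
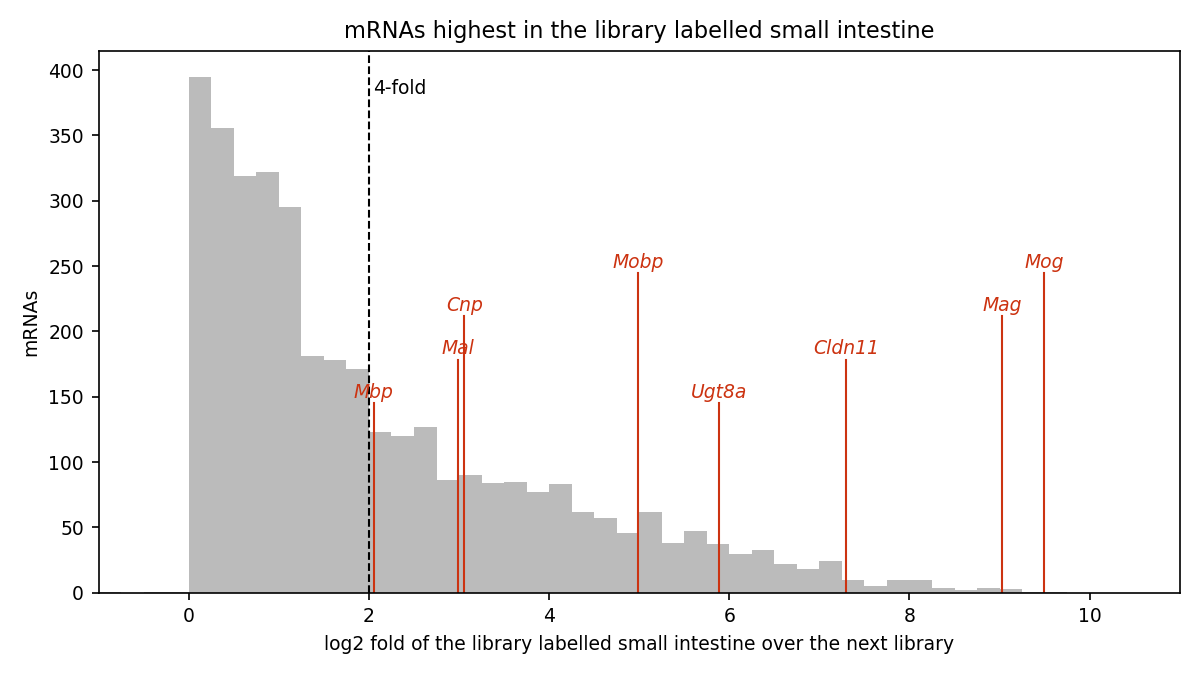
Distribution, in bins of the log2 scale, of the fold by which each mRNA that was highest in the small-intestine-labelled library exceeded the next library, with a library of fewer than 3 reads set to 3 reads. Red lines, whose height carries no value, are the 8 myelin mRNAs. They run from 4.15-fold for Mbp to a bound of 721-fold for Mog, and all lie at or to the right of the dashed 4-fold line.

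Together the 8 myelin mRNAs took 44053 reads in the small-intestine-labelled library, or 0.576% (95% Wilson interval 0.571 to 0.582) of all reads on CDSs. They took 0.00547% of reads in the lung-labelled library, 0.00436% in the kidney-labelled one, 0.00411% in the brain-labelled one, 0.00246% in the colon-labelled one and 0.00119% in the heart-labelled one. Mag alone gave 76.4% of the reads on the 8 mRNAs in the small-intestine-labelled library, followed by Mog with 8.33% and Cnp with 6.25%. Without Mag the share in that library was 0.136%, still the highest of the 6. Kri1 took 14.1% of all reads in that library and 22.1% in the kidney-labelled library, which lowers every other share there.

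The 8 neuronal markers were also all highest in the small-intestine-labelled library, 7 of them past 4-fold. Beside this, 24.6% of mRNAs with any read were highest there and 9.08% of those with at least 10 reads past 4-fold. Relative to that library, the neuronal list had a median level between 0.0749% in the brain-labelled library and 0.832% in the kidney-labelled one, with a highest single value of 34.7%, that of Stmn2 in the lung-labelled library. The myelin mRNAs had medians between 0, in the lung-labelled library, and 0.940%, in the kidney-labelled one, with a highest single value of 24.1%, that of Mbp in the brain-labelled library. The part of neural tissue in the low values elsewhere was not tested.

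Other mRNAs of oligodendrocytes shared the pattern for the most part. Of the 26 on that list, 25 were found, 21 were highest in the small-intestine-labelled library and 17 were past 4-fold there, beside the 9.08% of all mRNAs. Opalin and Ermn, membrane and cytoskeletal proteins of mature oligodendrocytes, had 218 and 258 RPKM there. Gjc3, Gpr37 and Omg had reads in no other library. Gjc3 was listed at 0 in all the others, Gpr37 was not listed in the colon-labelled one, and of these libraries only the heart-labelled one listed Omg.

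The other 4 oligodendrocyte mRNAs were highest under another label. Aspa, which cleaves N-acetylaspartate, and the phosphodiesterase Enpp6 were highest in the colon-labelled library, with 15.4 and 27.6 RPKM against 4.33 and 11.2 RPKM in the small-intestine-labelled one. Bcas1 had 28.6 RPKM in the kidney-labelled library and 26.6 RPKM in the brain-labelled one, against 12.3 RPKM in the small-intestine-labelled one. Evi2a had 6.75 RPKM in the brain-labelled library, 4.53 RPKM in the kidney-labelled one and 3.91 RPKM in the small-intestine-labelled one. For both mRNAs the kidney and brain labels did not differ beyond counting error. Sirt2, a deacetylase, had 299.5 RPKM in the small-intestine-labelled library and 231 RPKM in the heart-labelled one. Of 5 mRNAs of oligodendrocyte precursors, 3 were past 4-fold in the small-intestine-labelled library, beside 9.08% of all mRNAs. Pdgfra was highest in the lung-labelled library and Cspg4 in the colon-labelled one.

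Of the 11 peripheral myelin mRNAs, 9 had at least 10 reads. Of these 9, 4 were highest in the small-intestine-labelled library and 3 past 4-fold there. Of the 15432 mRNAs with at least 10 reads, 3621 were highest there and 9.08% past 4-fold. Drp2, of the Schwann cell membrane, had 7.73 RPKM in that library and Gldn, of the node of Ranvier, 4.29 RPKM, both below each of the 8 myelin mRNAs. Pmp2, a lipid carrier, had 10 reads in that library and was not listed in any other.

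Ncmap had 5 reads in all, each in the small-intestine-labelled library, and of the others only the kidney-labelled one listed it. Highest under other labels were Pmp22, Prx, Gjb1, Cldn19 and Egr2. Pmp22, a membrane protein that epithelia also make, had 99.3 RPKM in the brain-labelled library and 94.5 RPKM in the kidney-labelled one against 6.81 RPKM in the small-intestine-labelled one. Prx, which encodes periaxin and is also used by endothelium, had 75.3 RPKM in the lung-labelled library, 103-fold (69.5 to 159) above the next. Gjb1, a connexin that is not particular to Schwann cells, had 201 RPKM in the colon-labelled library and 129 RPKM in the small-intestine-labelled one. Cldn19 had 5.29 RPKM in the colon-labelled library. Egr2, a transcription factor of Schwann cells, had 2.75 RPKM in the lung-labelled library and 2.50 RPKM in the small-intestine-labelled one, a ratio of 1.10 (0.631 to 1.92), and Dhh was without reads throughout.

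Among 10 mRNAs of non-myelinating Schwann cells and enteric glia, 8 had at least 10 reads. Of these, 5 were highest in the small-intestine-labelled library and 3 past 4-fold there. Of the 15432 mRNAs with at least 10 reads, 3621 were highest there and 9.08% past 4-fold. S100b, a calcium-binding protein that astrocytes also make, had 211 RPKM there and 24.5 RPKM in the brain-labelled library, which carried the small intestine markers. Cdh19, a glial cadherin, had 37.3 RPKM against 5.94 RPKM in the same pair of libraries. Sox10, a transcription factor of glia, and Gfap were not listed in the brain-labelled library, so their absence there is not a measured value. Scn7a was highest and past 4-fold in the lung-labelled library, with 167 RPKM. Erbb3, a neuregulin receptor that epithelia also make, and Ngfr, a neurotrophin receptor, were highest in the brain-labelled library, with 151 and 4.48 RPKM. Of these, Ngfr was past 4-fold. The brain-labelled library held reads of Mbp, Cnp, Mag and Mal and of some glial mRNAs. Others were listed there at 0, among them Ugt8a, Gjc3 and Gpr37, or were not listed. The origin of these reads was not tested.

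**Figure D4:**
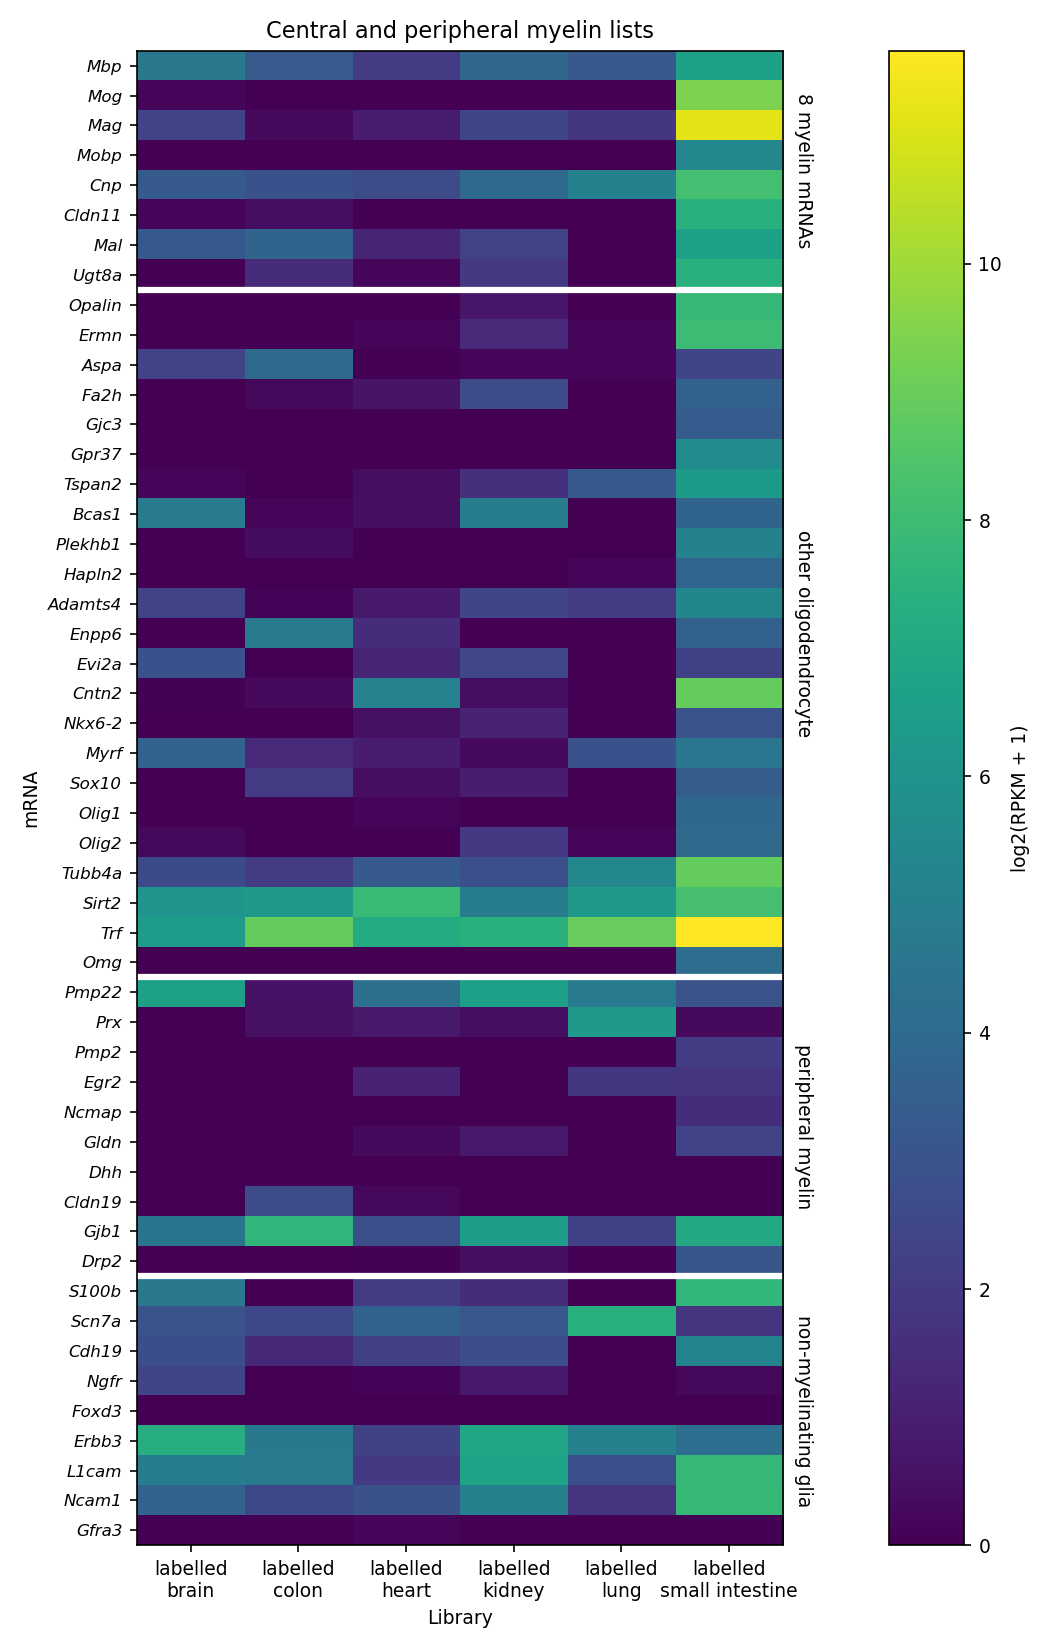
Heat map of log2(RPKM + 1) for the 8 myelin mRNAs and the lists of other oligodendrocyte, peripheral myelin and non-myelinating glial mRNAs (rows) in the 6 libraries by label (columns), with mRNAs that a library does not list drawn at 0. The right-hand column, the small-intestine-labelled library, is the brightest for all 8 myelin mRNAs and for most oligodendrocyte mRNAs. Of the peripheral myelin mRNAs drawn, Pmp22, Prx and Gjb1 are brightest under other labels, and most of the rest are dim throughout. A few mRNAs of the lists are not drawn.

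Of 10 mRNAs of myelin glycolipid metabolism, Ugt8a was the 1 past 4-fold in the small-intestine-labelled library, and 4 were highest there. These counts stand against 9.08% of mRNAs with at least 10 reads and 24.6% of those with any read. The first count is near the background and says nothing particular about the pathway. Fa2h, which hydroxylates the fatty acid of the same lipids, had 11.1 RPKM there and 5.44 RPKM in the kidney-labelled library. Gal3st1, which turns galactosylceramide into sulfatide, was highest in the colon-labelled library, with 7.52 RPKM against 2.89 RPKM. Galc, which degrades galactosylceramide, was highest there too, with 71.0 RPKM against 33.0 RPKM.

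Of 6 mRNAs of the MAL family and its relatives, 1 was past 4-fold in the small-intestine-labelled library, namely Mal, a count too small to read against the 9.08% of all mRNAs. Pllp, or plasmolipin, which is also a myelin protein, had 32.3 RPKM there and 12.1 RPKM in the kidney-labelled library. Mal2 had 16.4 RPKM there and 12.8 RPKM in the kidney-labelled library. Mall had 130 RPKM in the brain-labelled library and 115 RPKM in the kidney-labelled one, and 5.10 RPKM in the small-intestine-labelled one.

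For the 5 myelin mRNAs with at least 10 reads in more than 1 library, the mRNAs of most similar pattern were found by Pearson's r of log2(RPKM + 1) over the 6 libraries, among 12557 mRNAs. With 6 points and 1 library far above the rest, a high r is easily reached, and it is given as a description. Zfyve27 was nearest to Mbp (r = 0.996), followed by Dlg3 and Rere. Clstn3 was nearest to Mag (r = 0.999), then Atrn and Ptprz1. Mast3 was nearest to Cnp (r = 0.998), and Pcdhgc5 was also among the 3 nearest. Cck, a neuropeptide that is also a hormone of the small intestine, was nearest to Mal (r = 0.993), and Nap1l5 and Matk followed. Cck had 1277 RPKM in the small-intestine-labelled library, 79.0 RPKM in the colon-labelled one and 54.5 RPKM in the brain-labelled one. Slc6a17 was nearest to Ugt8a (r = 0.998), then Slc22a17 and Ly6h. Mog, Mobp and Cldn11 had at least 10 reads in 1 library only, so no pattern was matched.

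The coding sequences of the 8 mRNAs were mixed in codon ending. The share of codons ending in G or C (GC3) was above the median of all mRNAs, 58.9%, for 6 of the 8. Mobp had the highest share, 75.2%, then Cnp with 70.8%, Mag with 70.1% and Cldn11 with 69.4%. Mal had 63.4% and Mbp 61.6%. Mog had 54.6% and Ugt8a 43.5%, the latter lower than all but 13.3% of mRNAs. Mag and Ugt8a, both highest in the same library, thus lay on either side of the median.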

How the data were processed

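Ribo-seq of 6 mouse tissues was analysed from 1 deposited table per library. The deposited values were RPKM, with 1 row for each protein-coding mRNA, and no columns of comparisons. Per the labels and the Methods, reads were trimmed with cutadapt and aligned with STAR to GRCm39 (versions not given in the sources used here). The Methods, written for macrophage libraries, describe 1 mRNA per gene with the longest CDS, from Ensembl release 107, and discard reads under 15 nt, multi-mapped reads and those with over 2 mismatches. They were taken to hold here. RNA-seq and macrophage data were not analysed here.

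Multiplying RPKM by the CDS length recovered whole reads, from 4504853 to 10635031 per library. An mRNA not listed was treated as having no read. Intervals (95%) were exact Poisson for RPKM, Wilson for shares and exact conditional binomial for ratios. Of 18437 gene IDs, 18424 were named through GENCODE M39. Promoters came from RefSeq on GRCm38.p6. Because every tissue had 1 library, an mRNA was called by fold alone. Named mRNAs were the 8 myelin mRNAs, the lists of cell type markers and the 3 of most similar pattern with at least 100 reads. A few mRNAs of the lists are counted but not reported here. Members and lists were chosen with earlier results of these data known. Alternatives covered scaling, depth, fold, the RPKM limit and the read minimum. Recovery of reads was tested on simulated data. Scripts ran in Python 3.11.15 with pandas 2.3.3, scipy 1.17.1, numpy 2.4.6 and matplotlib 3.10.9.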

Additional observations from a re-analysis of the deposited data

How the results depend on the processing

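All 8 myelin mRNAs stayed highest in the small-intestine-labelled library under each scaling and after thinning to the lowest depth. With a fold of 10 in place of 4, 5 of the 8 and 11 of the oligodendrocyte list passed, beside 5.35% of mRNAs with at least 10 reads. With a limit of 95% of the summed RPKM in place of 1 RPKM, 5 in place of 3 counted as restricted. The share of all mRNAs that meets the 95% limit was not computed, so this count is not read further. Without the mRNA with the most reads in the total, the share of reads on the 8 mRNAs was 0.00560% in the kidney-labelled library and 0.671% in the small-intestine-labelled one. Without Mag it was 0.00335% in the brain-labelled library, 0.00352% in the kidney-labelled one and 0.136% in the small-intestine-labelled one. Of 28 recomputed ratios of the 7 mRNAs that have a counting interval, 25 stayed within it and 3 did not, and none changed direction. The largest move was that of Mog, whose ratio rests on a single read and went from 5106 to 2174 on thinning. The bound for Mobp lay between 31.8 and 40.7. The scalings moved all ratios of the small-intestine-labelled library to another by between -0.14 (kidney) and 0.67 (lung, median of ratios) on the log2 scale. With the median of ratios, the ratio of Cnp rose from 8.34 to 13.3 and that of Mbp from 4.15 to 5.07. No paired analysis was possible because the labels carry no replicate numbers and each tissue has 1 library. Levels under about 1 RPKM rest on few reads, and the lack of replicates limits every comparison.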
